A study of Procotyla fluviatilis with 12 samples.

Results

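Wounded tissue from the body region of *Procotyla fluviatilis* that can regenerate was set against uncut tissue from the region that cannot, in 6 of the 12 RNA-seq libraries of the series. *P. fluviatilis* is a freshwater planarian with limited regenerative ability. The 3 libraries titled Reg+ amputated came from adult worms cut anterior to the pharynx, with tissue just behind the wound excised after 24 hours. The 3 titled Reg- uncut came from adult worms that were not cut, with tissue excised at the matching site posterior to the pharynx. Each library was made from a pool of 3 field-collected worms held briefly at 18 °C, in both groups. The libraries were chosen by their titles, and region and treatment differ together between the groups, so the effect of the one cannot be told apart from the effect of the other. An exchange of labels between whole groups cannot be told apart from a true likeness of these tissues, so regions, treatments and directions are given as labelled. Of 149594 contigs (assembled transcripts) in the files, 56768 had at least 10 reads in 3 or more of these 6 libraries and were compared. The files pair no contig with a gene name, so contigs are given by identifier and length, the labelled tissue could not be checked against marker genes, and no gene group is described.

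Planarians rebuild lost parts from a population of dividing stem cells, the neoblasts, which form new tissue at a wound. Early wound genes and position signals along the body axis, Wnt/β-catenin signalling among them, set whether a head or a tail is formed. Uncut tissue of a region carries that region's ordinary transcripts, whereas tissue next to a wound can add wound-induced transcripts and those of stem cell progeny. In tissue fragments such as these, fewer cells of a type and less RNA per cell cannot be told apart.

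The 6 libraries held 24370500 to 31266924 reads, and 99.282% to 99.461% of each library's reads fell in the compared contigs. The share of uniquely assigned reads was 96.81% to 97.09%. The 10 most abundant contigs accounted for 10.9% ± 0.95 of a Reg+ amputated library and 9.78% ± 0.497 of a Reg- uncut library (SD, n = 3 each; exact permutation test, two-sided, p = 0.2, where 3 against 3 cannot go below 0.1). Nothing in the labels says that pools came from separate collections, so the p-values below cover pool-to-pool spread, which may be technical.

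The groups were nearly as alike as their own replicates. Across contigs, the Spearman correlation of log2 CPM (counts scaled to the library total, with a prior count of 2) averaged 0.9654 ± 0.0045 (SD) over 3 pairs of Reg+ amputated libraries and 0.9631 ± 0.0047 over 3 pairs of Reg- uncut libraries. Between the groups it averaged 0.9566 ± 0.0051 over 9 pairs, with a range from 0.9505 to 0.9651. The ranges overlapped, since the closest pair between groups was above 4 of the 6 pairs within groups. Pairs share libraries, so these values are a description. Group means of log2 CPM correlated across the 56768 contigs with a Pearson r of 0.9831.

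By Spearman correlation and the first principal component, Reg+ amputated replicate 3 stood nearest to the other group. Its mean Spearman correlation was 0.9629 with its own group and 0.9613 with the Reg- uncut libraries, and the library closest to it was Reg- uncut replicate 3. For Reg+ amputated replicate 2 the same values were 0.9667 and 0.9532. On the first principal component (32.5% of the variance) Reg+ amputated replicates 2 and 1 lay at 90.0 and 47.5. Replicate 3 of that group was at -2.6, beside Reg- uncut replicate 1 at -18.2, while Reg- uncut replicates 3 and 4 lay at -51.2 and -65.4. The second component held 24.4% and set Reg- uncut replicate 1, at 92.4, apart from the rest. The third held 17.1% and set Reg+ amputated replicate 3, at 84, apart from the rest, so that library was not simply intermediate. Its chi-square per degree of freedom (a measure of difference in counts) to the Reg- uncut libraries was 21.35 to 25.39. For Reg+ amputated replicates 1 and 2 the range was 18 to 25.97, so by that measure it was no nearer. The biological coefficient of variation (the edgeR common value) was 20.7% in Reg+ amputated and 21.0% in Reg- uncut tissue. It was 25.1% in Reg+ uncut and 42.6% in Reg- amputated tissue. At abundant contigs scatter was wider in Reg+ amputated than in Reg- uncut tissue. Median within-group SDs of log2 CPM were 0.13 against 0.09 from 100 to 1000 CPM and 0.16 against 0.1 from 1000 CPM.

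**Figure D1:**
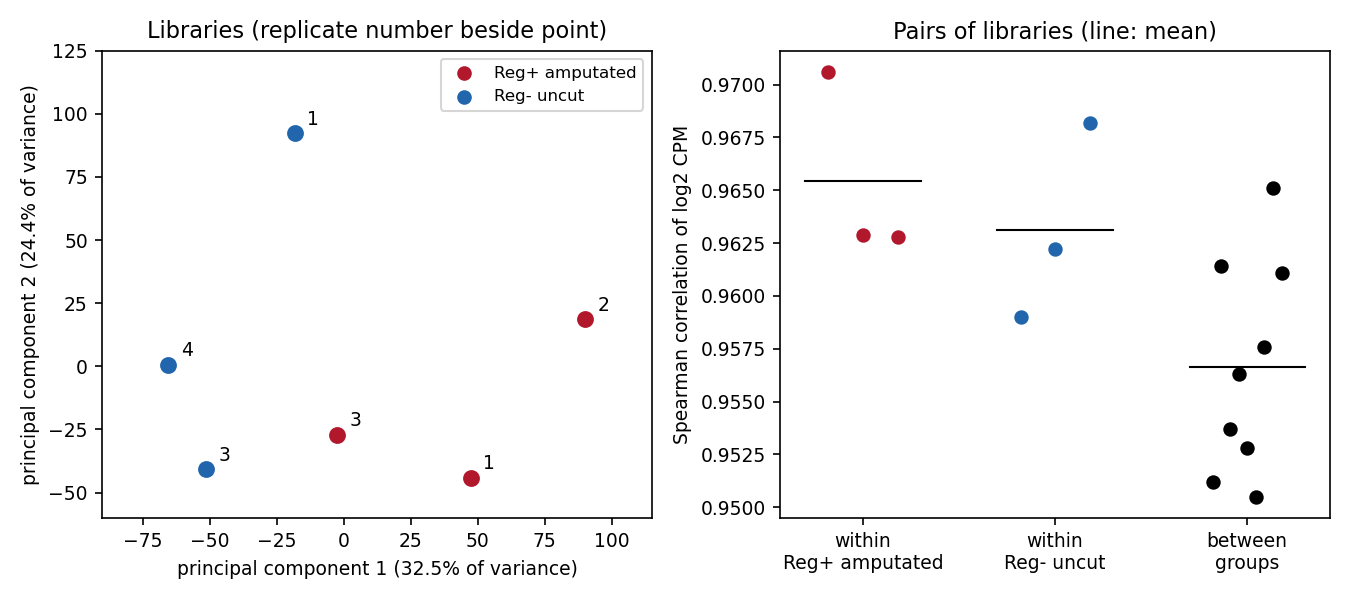
Left, the 6 libraries on the first and second principal components of log2 CPM (axes with their share of variance), coloured by group with the replicate number beside each point; right, the Spearman correlation of each pair of libraries, with a line at the mean of each kind of pair. On the first component Reg+ amputated replicate 3, at -2.6, lies between its own group and Reg- uncut. The third component, not drawn, sets it apart from all others. The 9 pairs between groups (mean 0.9566) overlap the pairs within groups.

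At most contigs the difference of group means was below the larger of the 2 SDs between replicates. The median absolute log2 fold change was 0.23 over the 56768 contigs, and the SD of the fold changes was 0.44. Differences of group means in log2 CPM were below the larger of the 2 within-group SDs at 63.6% of contigs. The share was 53.4% from 10 to 100 CPM and 48% from 1000 CPM. This measure is lenient, since means of 3 libraries vary less than single libraries and the larger SD was taken. It does not show that the groups are equal. The typical difference was smaller at contigs with more reads. Below a mean of 1 CPM, where 16548 contigs held 0.965% of reads, the median absolute log2 fold change was 0.32 and the median within-group SDs of log2 CPM were 0.39 and 0.37. From 10 to 100 CPM, 12605 contigs had a median absolute log2 fold change of 0.17 with within-group SDs of 0.14 and 0.12. From 1000 CPM, 50 contigs held 16.9% of reads and had a median of 0.14. Large differences did not fall away in the same manner, as the SD of the log2 fold changes was 0.33 from 10 to 100, 0.37 from 100 to 1000 and 0.41 from 1000 CPM. The share of contigs at 2-fold or more was 6.25% below 1 CPM, 1.67% from 10 to 100, 2.45% from 100 to 1000 and 6% (3 of 50) from 1000 CPM.

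**Figure D2:**
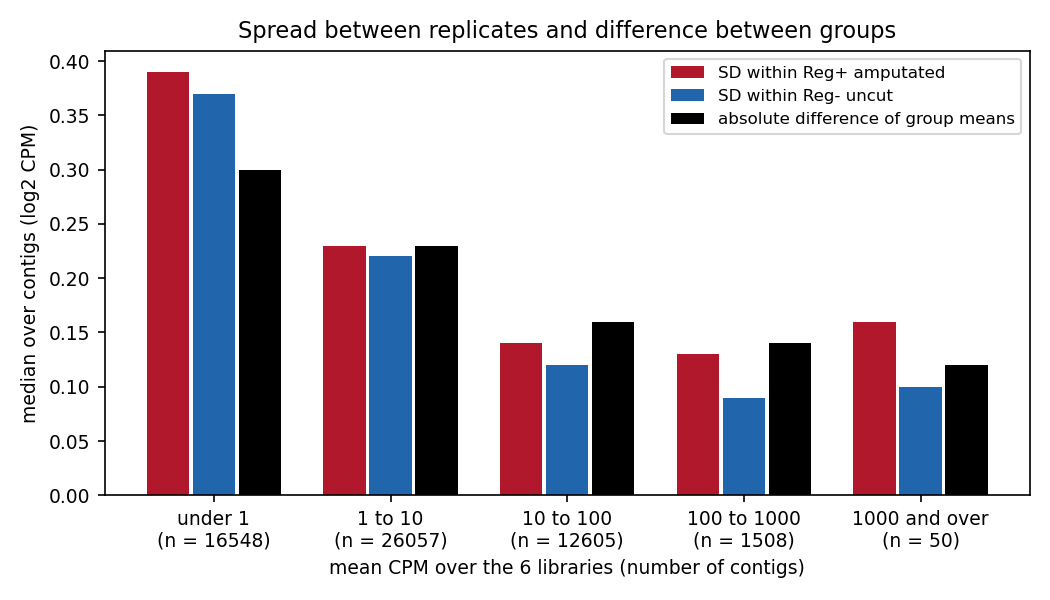
Median over contigs, in log2 CPM, of the SD within Reg+ amputated, the SD within Reg- uncut and the absolute difference of the group means, by mean CPM over the 6 libraries (number of contigs under each bin). The difference of means is below both SDs under 1 CPM (0.30 against 0.39 and 0.37) and slightly above both from 10 to 1000 CPM (0.16 against 0.14 and 0.12 in the bin from 10 to 100).

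Differences were bounded more closely from 10 to 100 CPM than below 1 CPM. The 95% interval of the log2 fold change from the edgeR fit lay within 2-fold in either direction for 65.3% of all contigs, for 92.0% of those from 10 to 100 CPM and for 27.1% of those below 1 CPM. A change of 2-fold or more was fitted at 829 contigs in favour of Reg+ amputated and 1185 in favour of Reg- uncut tissue. Of these, 979 averaged 1 CPM or more. Groups did not overlap at 662 of the 979 (67.6%), against 24.1% of all tested contigs at that level. The 979 were chosen by the difference between these same libraries, which favours separation, so the higher share is no check of replicate agreement.

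Calls were made with edgeR's two-sided quasi-likelihood test, at a p below 0.05 after Benjamini-Hochberg adjustment. Of the 56768 contigs tested, 11 (0.0194%) were called. In Reg+ amputated tissue 3 (0.00528%) were higher and 8 (0.0141%) lower. In CPM the groups did not overlap at 12098 contigs (21.3%), 4809 with the higher values in Reg+ amputated tissue. With 3 against 3 libraries, such separation has a probability of 0.1 at a contig where groups do not differ. At an unadjusted p under 0.05 there were 8401 contigs (14.8%), 3894 higher and 4507 lower. Fitted the same way on the 6 libraries of each pair, the other pairs of groups gave 0 calls (Reg- amputated against Reg+ uncut, 1159 at an unadjusted p under 0.05 by edgeR and 57 calls by DESeq2, 0.0996% of its contigs with an adjusted p), 864 (both amputated groups), 1044 (Reg- amputated against Reg- uncut), 2030 (both uncut groups) and 6384 (Reg+ amputated against Reg+ uncut). That is 0%, 1.5%, 1.79%, 3.53% and 11.2% of contigs tested. The difference between these counts was not tested. Replicate spread differed between the fits, with a common biological coefficient of variation of 0.336 to 0.351 in pairs with Reg- amputated. In the other pairs it was 0.208 to 0.239, so the counts do not rank the groups by likeness. The SD of log2 fold changes was 0.45 in the pair with 0 calls and 0.444 in the pair with 11.

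The count of 11 depended on the test, the filter and the libraries fitted. DESeq2 called 1480 of 35830 contigs with an adjusted p (4.13%), 495 higher and 985 lower in Reg+ amputated tissue, with a median absolute log2 fold change of 0.86, and these included the 11. With no filter on low counts edgeR called 1282, and with all 12 libraries sharing one estimate of the spread it called 1. Without Reg+ amputated replicate 3, the library nearest the other group by Spearman correlation, it called 781. Of these, 18.1% were higher in Reg+ amputated tissue, and again they included the 11. By edgeR 1 was called without Reg- uncut replicate 1. None was called by edgeR without Reg+ amputated replicate 1 or 2, or without Reg- uncut replicate 3 or 4, with 5324, 6225, 8320 and 5694 contigs at an unadjusted p under 0.05. A fit with a library left out has fewer libraries to estimate the spread. A loss of calls there cannot be assigned to the library left out. The last contig called had an adjusted p of 0.0309 and a log2 fold change of -2.00, and the first one not called had 0.0544 and 3.34.

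**Figure D3:**
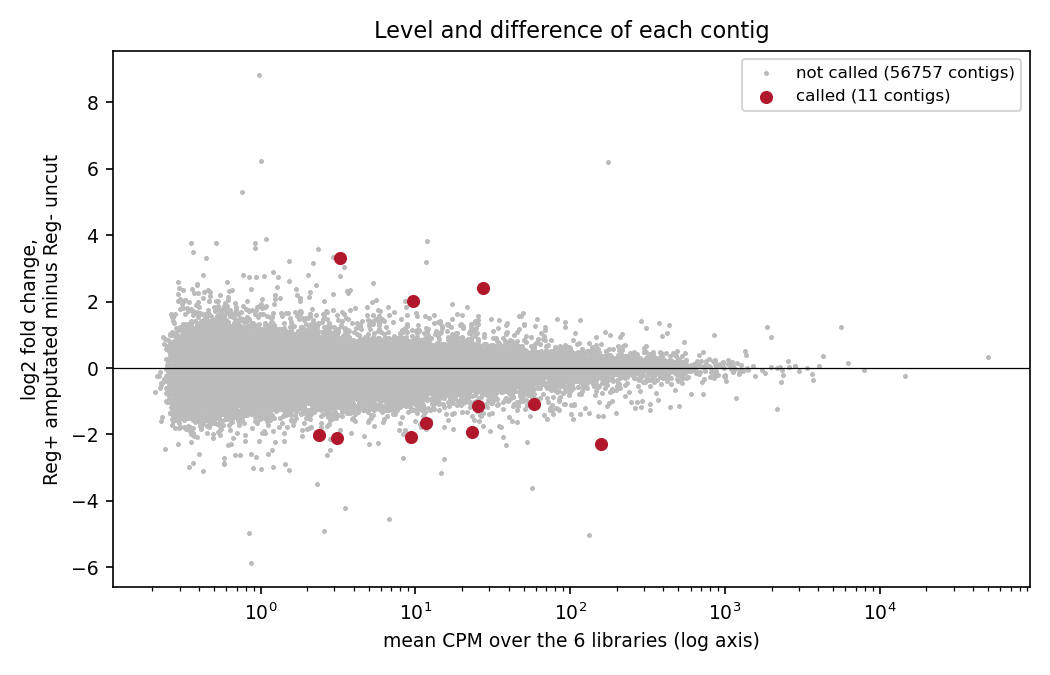
Each point is one of the 56768 contigs, by its mean CPM over the 6 libraries (log axis) and its edgeR log2 fold change, Reg+ amputated minus Reg- uncut; the 11 called contigs are in red. Called contigs lie between 2.38 and 157 CPM, and many contigs with larger fold changes were not called.

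The 11 called contigs were of ordinary length, and their median level was above that of all contigs tested. Their lengths ran from 208 to 1472 nt with a median of 585 nt, against a median of 606 nt over all contigs tested. Their mean level ran from 2.38 to 157 CPM, with a median of 11.7 CPM against 2.56 CPM over all contigs tested. Between 89.6% and 100% of their reads were uniquely assigned. Counting uniquely assigned reads alone called the same 11. All 11 changed by more than 2-fold, with absolute log2 fold changes from 1.10 to 3.32. Their coefficient of variation between replicates was 3.29% to 17.9% in Reg- uncut libraries, with a median of 8.86% against 12.7% over all tested contigs at 1 CPM or more. In Reg+ amputated libraries it was 12.5% to 26.3%, with a median of 18.6% against 13.7%, so replicates varied more there than at the typical contig. The spread is part of what the test selects on.

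The largest called difference was in contig14774 (1472 nt), which was low in uncut tissue of the deficient region. It had 224, 138 and 135 reads in Reg+ amputated replicates 1, 2 and 3, and 19, 15 and 18 in Reg- uncut replicates 1, 3 and 4. In CPM these were 7.16, 5.66 and 4.82 against 0.665, 0.503 and 0.627, so the groups lay far apart. Its log2 fold change was 3.32 ± 0.23 (SE; 95% interval 2.79 to 3.86, adjusted p = 0.0103 by edgeR). Per length it stood at 4.0 ± 0.806 RPKM (reads scaled to contig length and library total, the authors' values) and 0.406 ± 0.0571 RPKM (SD, n = 3 each).

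The other 2 contigs called higher were better covered. One of 591 nt stood at 52.1, 50.3 and 35.5 CPM in Reg+ amputated and at 9.83, 8.42 and 8.53 CPM in Reg- uncut libraries, a log2 fold change of 2.40 ± 0.19 (SE). The other, of 1077 nt, stood at 17.7, 16.6 and 12.2 CPM against 3.74, 3.99 and 4.04 CPM, a log2 fold change of 2.02 ± 0.18 (SE). In both, Reg+ amputated replicate 3 was the lowest library of its group, as it was for contig14774.

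Among contigs above 50 CPM none was called higher by edgeR. The nearest to a call was contig12291 (2117 nt), at 454, 452 and 387 CPM in Reg+ amputated and 225, 174 and 174 CPM in Reg- uncut libraries. Its groups did not overlap, and its log2 fold change of 1.20 ± 0.16 (SE) had an adjusted p of 0.0772 in edgeR and 1.36e-08 in DESeq2. Its level per length was 204 ± 18.1 RPKM against 90.4 ± 13.9 RPKM (SD, n = 3 each).

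Of the contigs called lower in Reg+ amputated tissue, contig50208 (208 nt) had both the largest fold and the highest level. Its reads numbered 1812, 1310 and 1254 in Reg+ amputated replicates 1, 2 and 3 and 8511, 7421 and 6854 in Reg- uncut replicates 1, 3 and 4. That is 58.0, 53.8 and 44.8 CPM against 298, 249 and 239 CPM, with no overlap. The log2 fold change was -2.30 ± 0.16 (SE; 95% interval -2.66 to -1.93, adjusted p = 0.0103 by edgeR). Per length it reached 251 ± 32.3 RPKM in Reg+ amputated and 1260 ± 151 RPKM in Reg- uncut tissue.

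A smaller but precise difference was found in contig19665 (432 nt). Its levels were 34.8, 32.9 and 41.9 CPM in Reg+ amputated and 76.7, 79.7 and 83.3 CPM in Reg- uncut libraries. The log2 fold change was -1.10 ± 0.11 (SE; adjusted p = 0.0309 by edgeR), the smallest fold among the 11. The remaining 6 contigs called lower, from 277 to 857 nt, had log2 fold changes from -2.11 to -1.15. In Reg+ amputated libraries 2 of these were near 1 CPM (means of 0.933 and 1.15 CPM), against 3.83 and 5.09 CPM in Reg- uncut tissue.

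**Figure D4:**
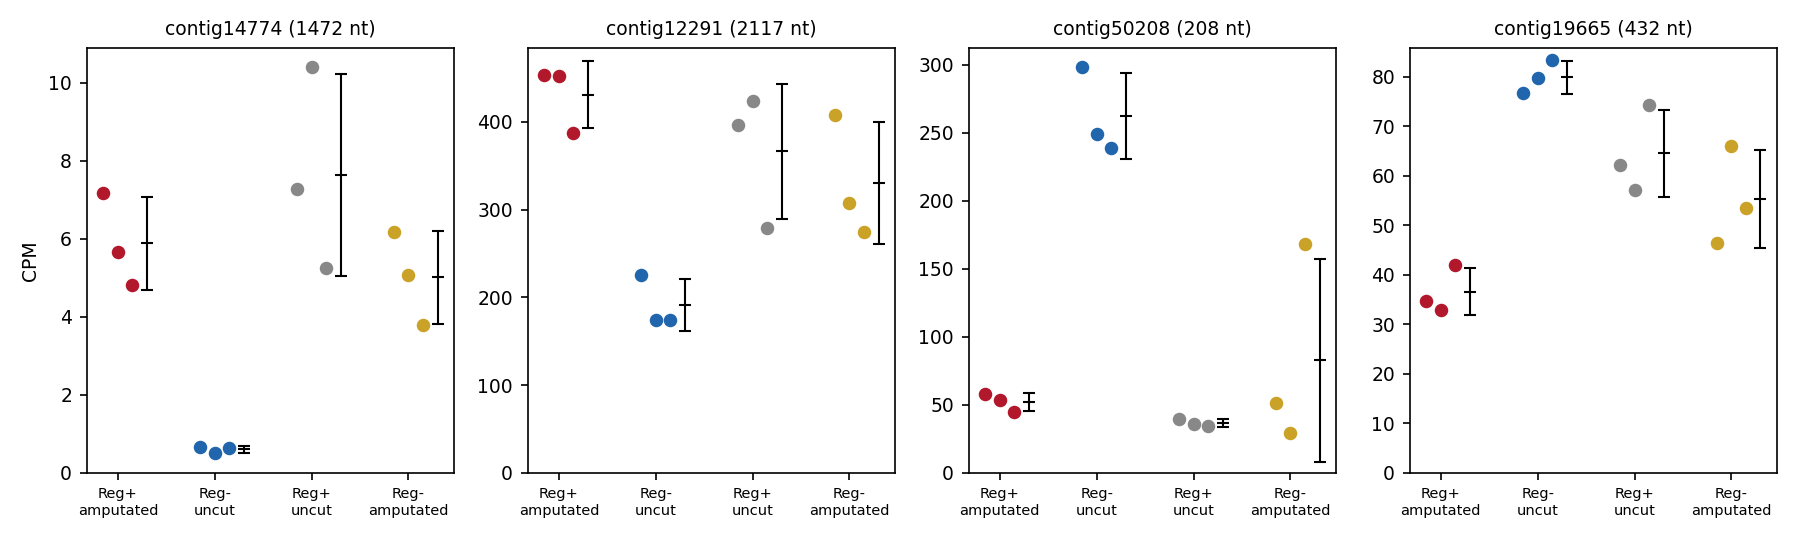
CPM of 4 named contigs in each of the 12 libraries, by group, with the mean and SD of each group (n = 3) beside its points; the first 2 are higher and the last 2 lower in Reg+ amputated than in Reg- uncut tissue, and contig12291 was not called. Only the 2 groups at the left of each panel were compared in choosing these contigs. In contig50208, Reg- amputated replicate 3, at 168 CPM, stands apart from its own group.

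The fold changes of the named contigs moved less than their calls. These contigs were chosen for groups that did not overlap in the same libraries. A steady direction was thereby favoured and is no separate check. Over 14 other settings the log2 fold change ran from 3.17 to 3.47 for contig14774, from -2.44 to -2.16 for contig50208, from -1.18 to -1.05 for contig19665 and from 1.06 to 1.37 for contig12291. Their adjusted p-values, by edgeR or DESeq2, reached 0.247, 0.159, 0.389 and 0.312. The value of 0.159 came from the edgeR fit on all 12 libraries. The others came from the edgeR fit with replicate number as a block, which has little left to estimate the spread.

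Libraries of the remaining groups, Reg+ uncut and Reg- amputated, had no part in the choice of the 11 contigs. Their levels are given here as a description of single contigs. At 4 of the 11 the mean log2 CPM of both these groups was nearer to Reg+ amputated, at 5 both were nearer to Reg- uncut, and at 2 they were split. That is 36.4%, 45.5% and 18.2% of the 11. Over all contigs tested these shares were 28.6%, 52.3% and 19.1%, so such a split is not particular to the 11. Expression of contig14774 was 7.63 ± 2.57 CPM in the Reg+ uncut group and 5.01 ± 1.19 CPM in the Reg- amputated group, close to the 5.88 ± 1.19 CPM of Reg+ amputated and well above the 0.598 ± 0.0843 CPM of Reg- uncut tissue (SD, n = 3 each). The 1077 nt contig was alike in this, at 13.1 ± 2.03 and 14.0 ± 4.68 CPM against 3.93 ± 0.16 CPM in Reg- uncut tissue. In these contigs Reg- uncut was the low group among the 4, which follows from both other groups being nearer to Reg+ amputated.

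The 5 contigs nearer to Reg- uncut in both other groups were all called lower, with Reg+ amputated as the low group. For contig19665 the means were 64.6 ± 8.80 CPM for Reg+ uncut and 55.3 ± 9.92 CPM for Reg- amputated tissue, against 79.9 ± 3.28 and 36.5 ± 4.70 CPM in the groups compared. A contig of 819 nt averaged 3.52 ± 0.667 CPM in the Reg+ amputated libraries and 15.2 ± 1.34 CPM in the Reg- uncut libraries. Its mean was 13.1 ± 2.17 CPM for Reg- amputated and 25.2 ± 8.09 CPM for Reg+ uncut tissue. At all 5 the mean in uncut tissue of the same region, as labelled, was above the mean in Reg+ amputated tissue. That follows from picking contigs called lower whose Reg+ uncut mean was nearer to Reg- uncut, so it is no separate result.

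Reg- amputated replicate 3 went against its group at 3 contigs called lower. In contig50208 it stood at 168 CPM against 51.5 and 28.9 CPM in replicates 1 and 2. An 857 nt contig showed 32.2 CPM against 8.36 and 5.88 CPM, and a 347 nt contig 20.4 CPM against 9.16 and 6.81 CPM. In all 3 its level was nearer to the Reg- uncut libraries, which are uncut tissue of the same region. Without this library both other groups were nearer to Reg+ amputated at 6 of the 11 contigs and nearer to Reg- uncut at 5.

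Reg- amputated against Reg+ uncut is the reverse pairing of region and treatment and shares no library with Reg+ amputated against Reg- uncut. The same sign in both means that the amputated groups differ from the uncut groups in the same direction, and opposite signs that the regions do. Signs alone do not assign a difference to either, since a single group can stand apart. Of the 11 contigs, 6 had the same sign and 5 the opposite sign, and 31157 of the 53554 contigs tested in both (58.2%) had the same sign. Without Reg- amputated replicate 3 the count with the same sign was 8. None of the 11 was called in the second comparison by edgeR, where 2 had an unadjusted p under 0.05, both lower in amputated tissue in each comparison. For contig50208 the log2 fold change there was 1.21 ± 0.59 (SE), for contig14774 it was -0.58 ± 0.34 and for contig19665 it was -0.18 ± 0.16 (adjusted p = 1 for each by edgeR). Of the contigs called by DESeq2, 999 of 1472 (67.9%) had the same sign, with a median log2 fold change of 0.11 in the direction of the first comparison.

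**Figure D5:**
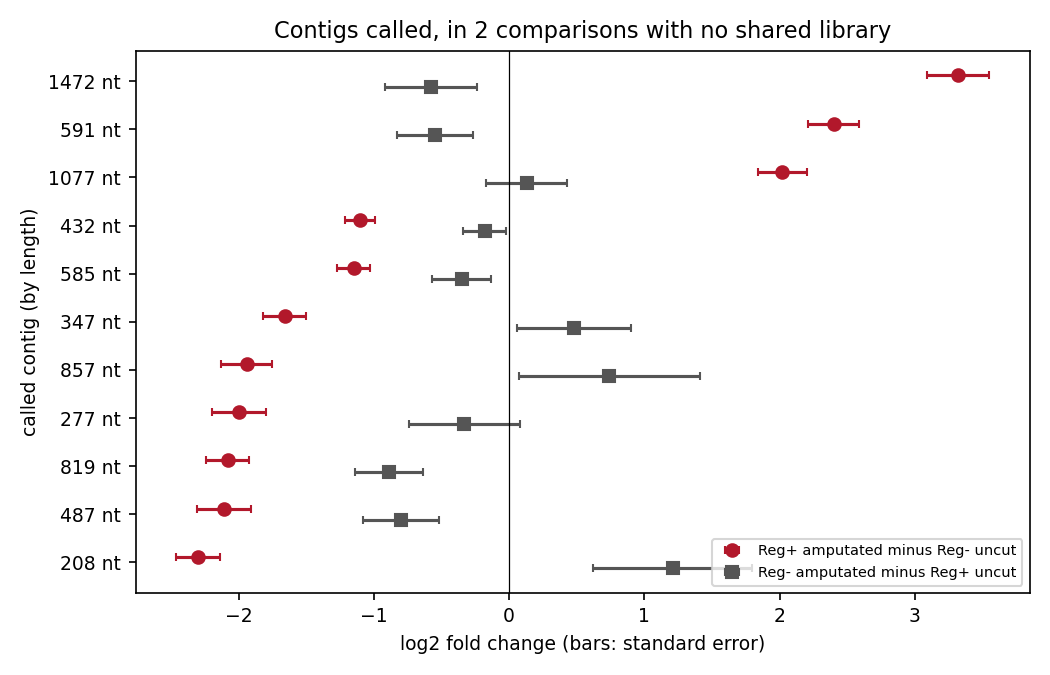
Log2 fold change of the 11 called contigs, ordered by size and identified by length, in Reg+ amputated minus Reg- uncut (circles) and in Reg- amputated minus Reg+ uncut (squares), with standard errors from the edgeR fits. The squares fall on both sides of 0, with 6 of 11 on the side of their circle.

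Many contigs with large fold changes were uneven between replicates. At a mean of 1 CPM or more, 72 contigs differed by 4-fold or more, 39 higher and 33 lower in Reg+ amputated tissue. The groups did not overlap at 34 of these, against 24.1% of all tested contigs at 1 CPM or more, and overlapped at 38. The 72, too, were chosen by the difference between these same libraries, which favours separation. Of the 72, 7 were called, beside 0.0194% of all contigs tested. In 38 of the 72, 1 library alone held over 50% of the CPM summed over the 6 libraries. The median coefficient of variation in the higher group was 86.6% among those not called and 12% among those called. These single libraries were spread over both groups, with 9, 7 and 4 contigs for Reg+ amputated replicates 1, 2 and 3 and 8, 7 and 3 for Reg- uncut replicates 1, 3 and 4.

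Such contigs include abundant ones. Of 1558 contigs with a mean of 100 CPM or more, 40 differed by at least 2-fold, 31 of them with groups that did not overlap, and 3 by at least 4-fold. Groups did not overlap at 29.2% of all contigs from 100 to 1000 CPM and at 32% of those above, which were not chosen by their fold change. The largest fold in favour of Reg+ amputated at this level was in a 205 nt contig, with 16806, 15 and 13910 reads in its replicates 1, 2 and 3 and 233, 163 and 1 reads in Reg- uncut replicates 1, 3 and 4. Reg+ amputated replicate 2 was thus at the level of the other group, and the log2 fold change of 6.22 ± 1.88 (SE) had an adjusted p of 0.201 in edgeR. In the other direction a 219 nt contig had 313, 42 and 353 reads in Reg+ amputated and 21498, 364 and 54 reads in Reg- uncut libraries. Reg- uncut replicate 1 alone was high, and the log2 fold change of -5.02 ± 1.88 (SE) had an adjusted p of 0.274 in edgeR.

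Presence in one group with absence from the other was rare. A single contig, 477 nt long, had at least 10 reads in each Reg+ amputated library (130, 10 and 36) and no read in the 3 Reg- uncut libraries. Its pooled Reg+ amputated reads, scaled to library totals, stood 61.1-fold above a limit of 3 reads over the whole Reg- uncut group. That limit allows for counting error in Reg- uncut alone, and 130 of the reads came from Reg+ amputated replicate 1. The contig's adjusted p was 0.125 by edgeR. In the Reg+ uncut libraries it had 8, 0 and 0 reads and in the Reg- amputated libraries 1, 1 and 3. No contig had at least 10 reads in each Reg- uncut library and none in Reg+ amputated tissue.

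Of the 10 contigs with the most reads, none was called by edgeR. The groups did not overlap at 4, beside 32% of all contigs from 1000 CPM. At these 4 the log2 fold changes were -0.06, -0.24, -0.37 and 1.24. The contig with the most reads, contig141585 (1572 nt), stood at 56700, 61400 and 47700 CPM in Reg+ amputated and 50200, 44000 and 40500 CPM in Reg- uncut libraries. The groups overlapped, and its log2 fold change was 0.34 with an interval from -0.08 to 0.75 (adjusted p = 0.427 by edgeR). Among these 10, the one with the largest fold was 5384 nt long. It was at 5980, 9900 and 7710 CPM in Reg+ amputated and 2640, 3180 and 4540 CPM in Reg- uncut libraries, a log2 fold change of 1.24 ± 0.25 (SE), for which edgeR gave an adjusted p of 0.114 and DESeq2 6.81e-05. With 84.1% of its reads uniquely assigned, it shares reads with other contigs. The other 9 had log2 fold changes from -0.37 to 0.37.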

How the data were processed

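RNA-seq libraries were made with a TruSeq kit per the labels' protocols, and read on an Illumina sequencer. For each contig of a transcriptome assembled de novo (series design text), the authors deposited whole-number counts of total and of uniquely assigned reads, per the file headers, with no normalization. The deposited RPKM equal total reads per contig length and column total to within 0.0078 RPKM. They were used only to give levels per contig length and entered no test. Which aligner and counting tool were used, and how multiply matching reads were treated, is not given in the sources used here.

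Total read counts were tested with edgeR 4.0.16 (R 4.3.3; TMM scaling, quasi-likelihood test, Benjamini-Hochberg adjustment) on the 6 libraries of the 2 groups, for contigs with at least 10 reads in 3 or more of them. DESeq2 1.42.0 was an alternative. Only these groups were fitted because Reg- amputated libraries were known to vary more. Standard errors are the log2 fold change divided by the square root of F, and intervals use the t distribution of the fit. CPM are counts scaled to the column total. TMM factors ranged from 0.931 to 1.04. The procedure was tested on simulated counts, where false calls made up a larger share of the calls than the threshold allows and most 2-fold changes were missed. No pair of libraries was a repeat within sampling noise, as chi-square per degree of freedom was at least 9.676 over contigs with 20 or more reads in a pair.

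The contigs compared, the fit and the naming rule were chosen with earlier results of these data known. Named, per direction, were the called contig with the largest fold change at 1 CPM or more and that with the lowest p at 50 CPM or more, with groups that do not overlap. Where none was called, the contig with the lowest p took the place. The contig with the most reads was added. Contigs given by length alone were chosen after their values were seen. Nearness of group means was measured on log2(CPM + 0.1). Counting bounds cover counting error only.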

Additional observations from a re-analysis of the deposited data

How the results depend on the processing

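Calls for Reg+ amputated against Reg- uncut numbered 11, the same contigs each time, under DESeq2 size factors, filterByExpr, a minimum of 50 reads and unique reads. They numbered 1480 with DESeq2, 1282 with no filter on low counts, 1 with all 12 libraries in the fit, and 0 to 781 when a library was left out. The cause was not tested. Replicate numbers 1 and 3 occur in both groups but mark no shared animal or day in the labels, and same-numbered deviations from the group means correlated at -0.135 and 0.010. With the replicate number as a block, 1 contig was called, none of the 11. The log2 fold changes of the 5 named contigs kept their sign under all 14 settings. All but contig141585 were chosen for groups that did not overlap in these libraries, which favours a kept sign. The mean Spearman correlation within groups was 0.8908 with no filter and 0.9637 to 0.9666 with a library left out. Between groups it was 0.8873 with no filter, 0.9501 with at least 50 reads and 0.9548 to 0.9591 with a library left out, each time below the value within groups for the same setting. The SD of log2 fold changes was 1.11 with no filter, 0.368 with at least 50 reads and 0.434 to 0.504 with a library left out. With unique reads the groups did not overlap at 11994 contigs. For Reg- amputated against Reg+ uncut, settings chosen after the data were seen gave 57 calls with DESeq2 and 0 to 0 by edgeR with a library left out (809 to 2765 at an unadjusted p under 0.05). There, the count of the 11 contigs with the same sign in both comparisons was 5 to 8 with a library left out, and 999 of 1472 contigs called by DESeq2 had the same sign. At fewer reads precision falls, and below 1 CPM the median standard error was 0.37 against 0.13 from 10 to 100 CPM.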

Other observations

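The abundant contigs that were high in some worm pools and nearly absent from others did not keep to the 6 libraries compared, and they are given here as values. The 205 nt contig, high in Reg+ amputated replicates 1 and 3, also had 15757 reads in Reg+ uncut replicate 2, against 35 and 168 in replicates 1 and 3 of that group. In the Reg- amputated libraries it had 3, 147 and 3 reads. The 219 nt contig, high in Reg- uncut replicate 1, had 29554 reads in Reg+ uncut replicate 3 and 40885 in Reg- amputated replicate 2, against 34 to 343 in the other libraries of those groups. Neither contig was high in every library of any of the 4 groups, as titled. Whether such transcripts come from differences between worms of these field-collected pools was not tested.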
